A study of Mus musculus with 30 samples.

Results

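The genes described here encode the subunits of mitochondrial oxidative phosphorylation that are made from nuclear DNA, in testis of mice with changed alleles of Ythdc2. They were the protein-coding rows of the adult count table whose symbol begins with Nduf, Uqcr, Atp5 or a nuclear Cox4 to Cox8 name, or is Sdha, Sdhb, Sdhc or Sdhd. This gave 96 of 55566 rows, or 96 of the 21859 rows typed as protein coding. Complex I contributed 37 genes, its Ndufaf assembly factors 8, complex II 4, complex III 8, complex IV 21 with Ndufa4 and Ndufa4l2, and complex V, the ATP synthase, 18. The symbols Cox5b-ps and Ndufb1-ps carry a pseudogene suffix although their rows are typed as protein coding, and 2 identifiers carry the symbol Atp5o, 1 of them without a read in any library.

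Oxidative phosphorylation passes electrons from NADH through complex I, or from succinate through complex II, to ubiquinone, then through complex III and cytochrome c to complex IV, which reduces oxygen. Complexes I, III and IV pump protons across the inner mitochondrial membrane, and complex V uses the returning protons to make ATP. Most subunits are encoded in the nucleus and a small core in mitochondrial DNA. In testis, germ cells change their energy metabolism as they enter meiosis, and complex IV has subunit isoforms made mainly in testis, such as Cox6b2, Cox7b2 and Cox8c, beside forms used in most tissues.

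All mice were labelled C57BL/6J, and RNA came from testis. YTHDC2, a helicase that binds RNA, is needed by germ cells for meiosis. At postnatal day 8, 3 Ythdc2 -/- animals were compared with 3 Ythdc2 +/+ animals, and at day 10, 3 Ythdc2 -/- animals were compared with 2 Ythdc2 +/- and 1 Ythdc2 +/+ animal as a single control group, for total RNA and for ribosome footprints, the mRNA fragments covered by ribosomes. In adults, 3 mice homozygous for the WLA allele of Ythdc2 were compared with 3 mice that carried 1 WLA allele, each group with 1 animal of 20 weeks and 2 of 24 weeks, so the adult controls carry the allele too. By the animal numbers in the titles, total RNA and footprints of an age came from the same animals. The labels do not say how the alleles were made. The adult table gives a read count for every library. The juvenile tables give the authors' effect of knockout against control and its adjusted p for each gene, but no values by animal, so no spread between animals and no depth can be given for day 8 and day 10.

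The 6 adult libraries held 33331987 to 43707798 counted reads. Summed levels of 7 spermatid genes ran from 7796 to 9696 CPM (a gene's reads relative to the scaled library size) and those of 6 Sertoli cell genes from 853 to 1020 CPM. In contrast, 6 skeletal muscle genes, Cox6a2 among them, summed to 1.54 to 2.58 CPM. The 4 epididymis genes found, of 5 listed, summed to 0.284 to 0.697 CPM, with Lcn5 at 0. The targeted gene itself, Ythdc2, ran from 29.9 to 35.8 CPM in the heterozygous and from 32.8 to 35.8 CPM in the homozygous libraries, so its level does not tell the genotypes apart. No juvenile value of Ythdc2 was available here, so the day 8 and day 10 genotypes could not be checked against the level of the targeted gene. The heterozygous libraries differed more among themselves, with a chi-square per degree of freedom of 7.07 to 11.2 between pairs, than the homozygous ones, with 1.86 to 4.33. All values come from whole testis, where fewer cells of a type and less RNA per cell cannot be told apart.

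The promoters of these genes were searched for motifs, a feature that the symbol rule did not use. RefSeq windows of GRCm38.p6, the assembly that mm10 also names, cover 250 bases before and 50 after each annotated start; 78 of the 96 rows had a window, with 82 windows in all, and Cox8c and Ndufa4l2 were among the 18 rows without. The letters GCANGCGC, read on either strand as a match to the NRF1 motif, occurred in 36.6% of the 82 windows and in 9.61% of all 32851 windows. The ETS letters CCGGAAG, bound by factors such as GABP, occurred in 23.2% against 8.86%, and the YY1 letters AAGATGGC in 13.4% against 2.75%. The cyclic AMP response letters TGACGTCA were found in 4.88% against 1.79%, whereas the MYB letters AACNGTT were found in 2.44% against 4.45%. Most windows lacked each motif, and the counts varied by complex: NRF1 letters were found in 9 of 18 windows of complex V, 11 of 35 of complex I, 3 of 5 of complex III, 3 of 3 of complex II, 2 of 7 of the Ndufaf genes and 2 of 14 of complex IV. The YY1 letters were found in 7 windows of complex I, 3 of complex V and 1 of the Ndufaf genes, and in 0 of those of complexes II, III and IV. These are untested counts of letters in a window and say nothing of binding.

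Stretches of 150 bases that end at the base before the start are printed for 2 sets of genes, 5′ to 3′ on the gene's strand, with motif matches in capitals. The first set is the 3 members with the lowest effects in total RNA at day 8, and Sdha, the catalytic subunit of complex II. Atp5g2 lies on the minus strand (chr15:102671048-102671197), as do Uqcr11 (chr10:80406822-80406971), Atp5e (chr2:174464102-174464251) and Sdha (chr13:74350241-74350390). Capitals mark overlapping NRF1 letters on both strands in Atp5g2, ETS letters in Uqcr11 and, on the other strand, in Atp5e, and 3 NRF1 matches in Sdha.
Atp5g2: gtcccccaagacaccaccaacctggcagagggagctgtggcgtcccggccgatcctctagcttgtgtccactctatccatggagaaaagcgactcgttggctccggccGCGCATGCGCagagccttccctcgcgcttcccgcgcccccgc
Uqcr11: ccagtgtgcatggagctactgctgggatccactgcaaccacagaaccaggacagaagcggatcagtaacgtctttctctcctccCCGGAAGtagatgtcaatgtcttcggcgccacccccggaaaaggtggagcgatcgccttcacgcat
Atp5e: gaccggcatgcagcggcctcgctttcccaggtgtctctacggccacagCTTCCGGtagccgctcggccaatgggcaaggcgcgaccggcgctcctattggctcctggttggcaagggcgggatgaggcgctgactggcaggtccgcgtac
Sdha: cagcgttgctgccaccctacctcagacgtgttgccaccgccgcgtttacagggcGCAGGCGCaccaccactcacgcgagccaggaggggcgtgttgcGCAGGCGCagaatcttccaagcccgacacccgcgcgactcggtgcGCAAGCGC

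The second set is 2 isoform pairs of complex IV, testis form first. In both pairs the testis form had the lower juvenile effects, a difference that was not tested. The pair of Cox8c and Cox8a is not printed, since Cox8c had no window. Cox6b2 (chr7:4753095-4753244, minus strand) and Cox6b1 (chr7:30626115-30626264, minus strand) both lie on chromosome 7, Cox7b2 on chromosome 5 (chr5:71548206-71548355, minus strand) and Cox7b on the X chromosome (chrX:106015550-106015699, plus strand). Only Cox6b1 held a match in the printed stretch, to the ETS letters on the other strand. None of the 5 motifs was found in the printed stretch of the testis forms Cox6b2 and Cox7b2 or of Cox7b, which says only that these letters are not in this window.
Cox6b2: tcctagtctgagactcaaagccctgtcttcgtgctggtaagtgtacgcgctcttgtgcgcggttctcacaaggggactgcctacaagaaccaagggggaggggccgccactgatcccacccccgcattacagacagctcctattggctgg
Cox6b1: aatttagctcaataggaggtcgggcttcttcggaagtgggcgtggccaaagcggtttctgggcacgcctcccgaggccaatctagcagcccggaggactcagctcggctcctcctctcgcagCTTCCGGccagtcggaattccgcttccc
Cox7b2: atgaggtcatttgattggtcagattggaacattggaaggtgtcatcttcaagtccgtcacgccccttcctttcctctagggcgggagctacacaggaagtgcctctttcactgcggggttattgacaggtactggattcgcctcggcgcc
Cox7b: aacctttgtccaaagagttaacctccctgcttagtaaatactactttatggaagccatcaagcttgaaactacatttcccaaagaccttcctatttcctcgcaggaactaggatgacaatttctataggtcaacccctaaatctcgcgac

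**Figure D1:**
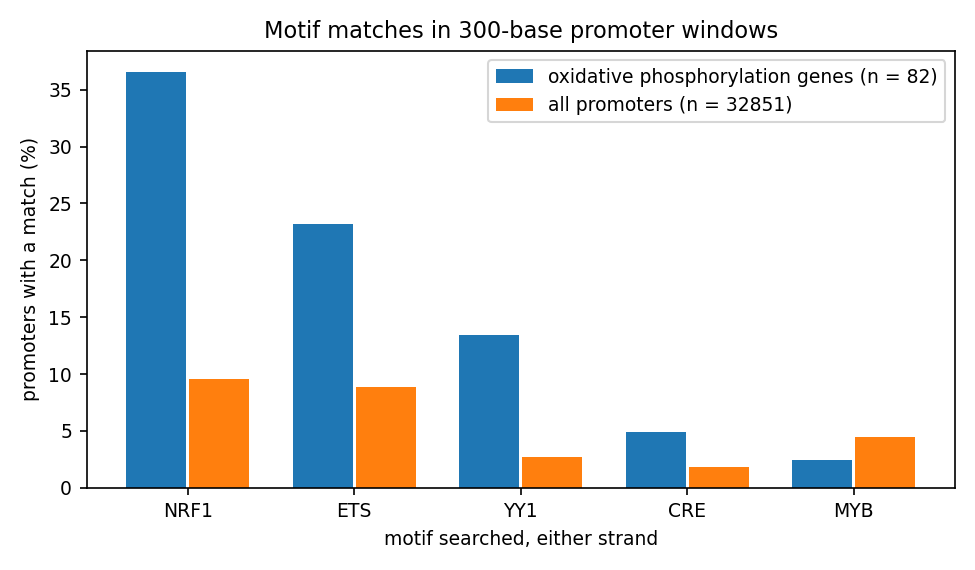
Share of 300-base promoter windows with a match to each of 5 motifs (y axis, percent of windows), for the 82 windows of oxidative phosphorylation genes and all 32851 RefSeq windows. The NRF1 bar reaches 36.6% in these genes and 9.61% in all windows, and MYB is the 1 motif whose share is lower in these genes.

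At day 8, most oxidative phosphorylation genes had a total RNA effect slightly below 0 in knockout testis, and none passed the test. In the authors' deposited table, 84 of the 95 members present had an effect below 0, or 88.4%, beside 52.8% of all 15145 genes. Their median effect in that table, which the authors' deposited files do not name as log2 but which is read so here, was -0.046 beside -0.0024 for all genes. No member was called at an adjusted p of 0.05 in the authors' deposited table, where 0.0528% of all genes were, and the smallest adjusted p of a member was 0.471. The effects were small: 82 members lay between -0.1 and 0.1 in the authors' deposited table, and the range from the 5th to the 95th percentile of all genes ran from -0.087 to 0.085. All members were measured in the same libraries, so a count of members below 0 is a description and not a test. In the adult libraries, the members' median deviation had a pooled SD between libraries of 0.027 (log2). No such spread can be given for day 8.

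The effects below 0 were found in all 5 complexes, and the assembly factors were mixed. In the authors' deposited table, the effect on total RNA was below 0 for 35 of 37 complex I subunits (median -0.051), 4 of 4 complex II subunits (median -0.042), 7 of 8 complex III subunits (median -0.060), 17 of 20 complex IV genes (median -0.043) and 18 of 18 complex V genes (median -0.042). The Ndufaf genes, which help build complex I and are not part of the finished enzyme, had 3 of 8 below 0 and a median of 0.0067 in the same authors' deposited table. Within complex I, the 7 core subunits that carry the flavin and iron-sulphur clusters had a median of -0.049 and the 30 others -0.052 in the authors' deposited table, a grouping chosen after the values were seen. No test was made of these differences between groups of genes.

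**Figure D2:**
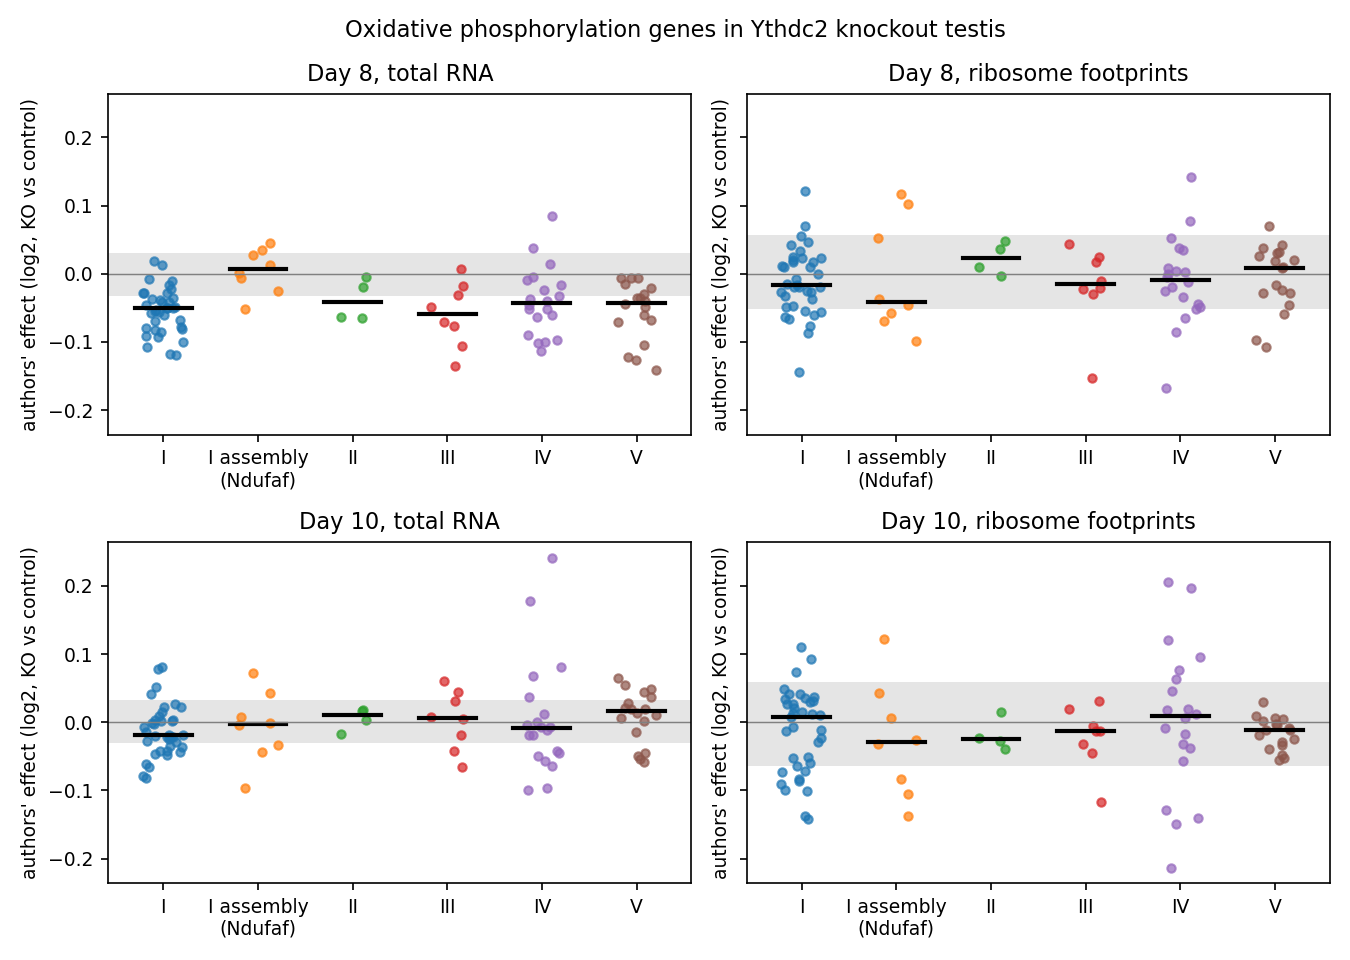
The authors' effect of knockout against control (y axis, read as log2) for each gene, by complex (x axis), in total RNA and footprints at day 8 and day 10. Points are genes, black lines medians, and the grey band spans the middle 50% of all genes; at day 8 in total RNA all 18 complex V genes lie below 0, and at day 10 Cox7b and Cox8a of complex IV lie highest.

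The lowest total RNA effects at day 8 belonged to small subunits. Atp5g2, 1 of 3 genes for the c subunit of the proton-driven rotor of ATP synthase, was at -0.14 (adjusted p = 0.537) in the authors' deposited table. The other c subunit genes, which encode the same mature protein, stood at -0.068 for Atp5g1 and -0.049 for Atp5g3 in that authors' deposited table. Uqcr11, a small subunit of complex III, followed with -0.14 (adjusted p = 0.540), and Atp5e, the epsilon subunit of ATP synthase, with -0.13 (adjusted p = 0.471) in the authors' deposited table. At the other end, the authors' deposited table gave 0.084 for Cox7b, a complex IV subunit encoded on the X chromosome, 0.046 for the assembly factor Ndufaf4 and 0.038 for the row named Cox5b-ps. The complex II genes ran from -0.0051 for the membrane anchor Sdhd to -0.065 for the iron-sulphur subunit Sdhb in the authors' deposited table, with -0.019 for the flavoprotein Sdha and -0.064 for the anchor Sdhc.

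Lists of neighbouring genes had medians both near to and farther from that of the members at day 8, and no difference between lists was tested. Assembly factors of all complexes that the symbol rule leaves out had a median of -0.0041 for total RNA in the authors' deposited table, with 24 of 47 below 0, and 17 genes of the citric acid cycle and pyruvate dehydrogenase a median of -0.0036, with 10 below 0. Electron carriers, meaning cytochrome c, the electron transfer flavoprotein and ubiquinone synthesis, had a median of -0.039, with 13 of 16 below 0, and regulators of mitochondrial biogenesis one of -8.07e-05, with 7 of 13 below 0, in the authors' deposited table. None of these genes passed 0.05 for total RNA or footprints at either age in the authors' deposited tables. Members with an NRF1 match had a median day 8 total RNA effect of -0.050 (n = 30) and those without one -0.040 (n = 47) in the authors' deposited table.

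Some marker lists for other cell types also leaned to a single side of 0 when 8-day total RNA was compared. Fabp4 alone among these markers was called, so the other signs are a description. In the authors' deposited table, all 5 red blood cell genes had total RNA effects below 0 (median -0.18), as did all 5 genes of differentiating spermatogonia (median -0.084, smallest adjusted p 0.539) and 4 of 5 Sertoli cell genes (median -0.032), whereas all 4 white fat genes were above 0 (median 0.38, Fabp4 called at an adjusted p of 0.0218). Undifferentiated spermatogonia genes lay on both sides of 0, from -0.026 for Nanos3 to 0.12 for Gfra1, in the authors' deposited table. Spermatocyte genes did too, from -0.13 for Hormad1 to 0.065 for Ldhc, in the authors' deposited table. The part of these cell types in the effects of oxidative phosphorylation genes was not tested.

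Ribosome footprints at day 8 had a median closer to 0, and the difference from total RNA was not tested. The median footprint effect of the members was -0.010 in the authors' deposited table, beside 0.0028 for all genes, with 53 of 95 members below 0, or 55.8%, beside 48.5% of all genes. No member and no gene at all was called for footprints (0% of 15145), and the smallest adjusted p of a member was 0.980 in the authors' deposited table. Effects also spread more widely over all genes in footprints, with an SD of 0.0972, than in total RNA, with an SD of 0.0566, in the authors' deposited table. The footprint effect lay above the total RNA effect for 70 of 95 members, or 73.7%, beside 52.4% of all genes, with a median difference of 0.043 in the authors' deposited table. For 35 members total RNA was below 0 and footprints above it, and for 49 members both were below 0, in the authors' deposited table.

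Among single genes, the lowest day 8 footprint effects in the authors' deposited table were -0.17 for Cox8c, -0.15 for Uqcr10, a small subunit of complex III, and -0.14 for the complex I accessory subunit Ndufa2. The highest in the authors' deposited table were 0.14 for Cox7b, 0.12 for the row named Ndufb1-ps and 0.12 for Ndufaf1, an assembly factor that works with Ecsit. Cox7b was therefore the highest member in total RNA and in footprints of the same animals, and neither effect passed the test. Ndufa2 lies 8.08 Mb from Ythdc2 on the same chromosome, so linkage to the changed allele and its action cannot be told apart.

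**Figure D3:**
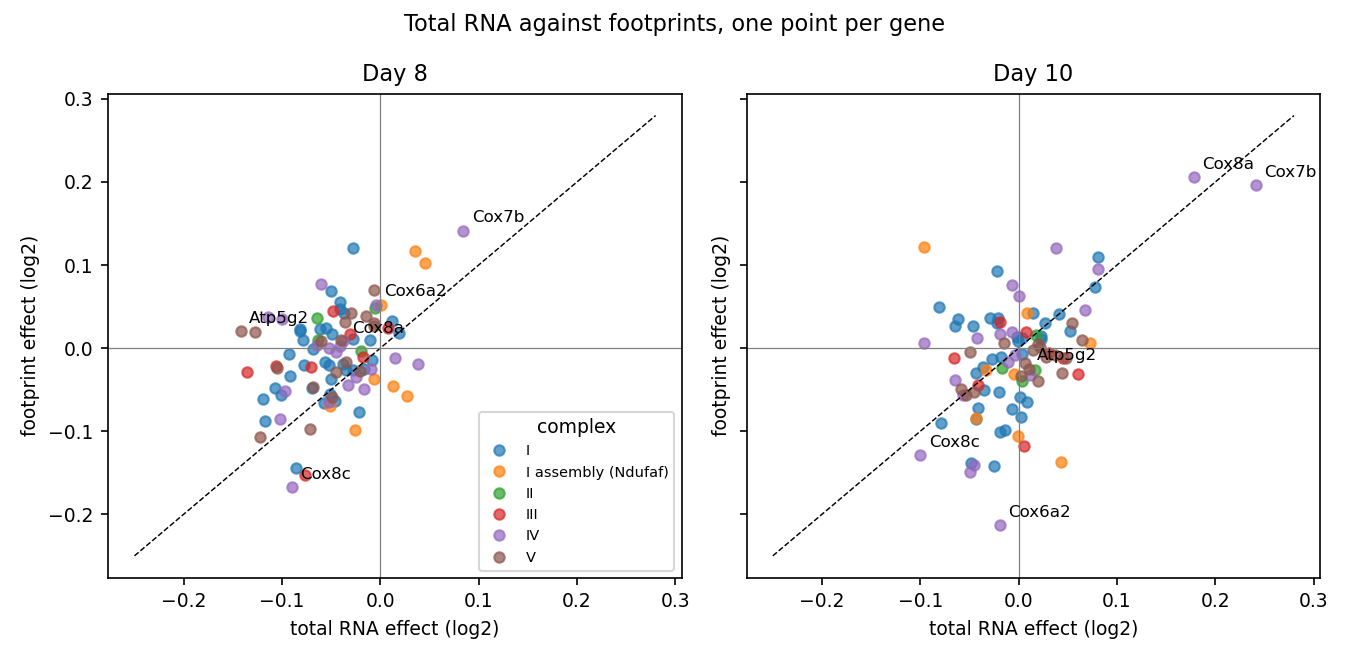
Total RNA effect (x axis) against footprint effect (y axis), both read as log2, for 95 genes at day 8 and at day 10, coloured by complex, with a dashed line where both are equal. At day 8 the points are shifted to the left, with 70 of 95 above the line; at day 10 there are 38 of 95 above it, and Cox7b and Cox8a stand at the upper right.

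At day 10 the total RNA effects were centred near 0. The median over 95 members was -0.0039 in the authors' deposited table, beside 0.00058 for all 14846 genes, and 51 members were below 0. No member and no gene was called at 0.05 for total RNA (0% of 14846) in the authors' deposited table, and at 0.15, where 1.33% of all genes were called, 1 of 95 members was, Cox7b. At day 8 that looser threshold called 0.132% of all genes and no member for total RNA in the authors' deposited table. By complex the day 10 medians ran from -0.019 for complex I, with 24 of 37 below 0, to 0.017 for complex V, with 5 of 18 below 0, in the authors' deposited table.

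The highest total RNA effect at day 10 was that of Cox7b at 0.24 (adjusted p = 0.102), followed by Cox8a, the widespread form of a small complex IV subunit, at 0.18 (adjusted p = 0.347) and by Ndufa4, a complex IV subunit once assigned to complex I, at 0.080, in the authors' deposited table. The lowest were Cox8c at -0.10, Ndufaf8 at -0.097 and Ndufa4l2 at -0.096 in that authors' deposited table. Over the 95 members, the total RNA effects of day 8 and day 10, which come from different animals, had a Pearson r of 0.305 and a Spearman rho of 0.198, and r was 0.189 without Cox7b and Cox8a, in the authors' deposited tables. Points of 1 age share the same libraries, so this is a description.

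Day 10 footprints had a median effect of -0.011 over the members in the authors' deposited table, beside -0.0022 for all genes, with 54 of 95 below 0. None was called (0% of all genes were), and the smallest adjusted p of a member was 0.849 in the authors' deposited table. Cox8a at 0.21 and Cox7b at 0.20 were the 2 highest members, as in total RNA of the same animals, followed by Ndufaf8 at 0.12, in the authors' deposited table. The lowest were the muscle isoform Cox6a2 at -0.21, the testis isoform Cox6b2 at -0.15 and the complex I accessory subunit Ndufb3 at -0.14 in the authors' deposited table. The footprint effect exceeded the total RNA effect for 38 of 95 members, or 40.0%, beside 48.9% of all genes, in the authors' deposited table. Of 7 spermatocyte markers, the authors' deposited table had Sycp1, Sycp3, Hormad1 and Spo11 at -0.26 to -0.66 in day 10 total RNA and Piwil1, Ccna1 and Ldhc at 0.017 to 0.077, with a median of -0.26. Differentiating spermatogonia genes had a median of 0.099 in total RNA (n = 5) and red blood cell genes one of 0.14 (n = 5) in the authors' deposited table. The part of these cell types in the members' values was not tested.

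The authors also tested footprints against total RNA. Differential translation, the footprint effect left after a regression on total RNA, was called for 1.33% of all genes at day 8 and 2.68% at day 10 in the authors' deposited tables, and for no member at either age. At an adjusted p of 0.15, where 3.06% of genes at day 8 and 6.13% at day 10 were called, 2 of 95 members passed at each age in the authors' deposited tables. At day 8 these were Atp5e at -0.43 (adjusted p = 0.120) and Cox7b at 0.42 (adjusted p = 0.135), and at day 10 Ndufaf5, a modifier of the core subunit Ndufs7, at -0.38 (adjusted p = 0.124) and Uqcrb, the subunit of complex III named for quinone binding, at -0.33 (adjusted p = 0.147), in the authors' deposited tables. The regression slopes worked back for the 4 genes from the authors' deposited tables were -3.51, -3.33, -82.5 and -18.7, so the translation effects are far from the plain difference between footprints and total RNA.

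Buffering, the total RNA effect left after a regression on footprints, was the 1 juvenile comparison in which members were called at 0.05. At day 8, 6 of 95 members, or 6.32%, passed 0.05 in the authors' deposited table, where 1.49% of all genes did. The buffering effects in the authors' deposited table were -0.90 for Atp5k, subunit e of ATP synthase (adjusted p = 0.000407), 0.54 for the complex I subunit Ndufa13 (adjusted p = 0.00384), 0.32 for Uqcr10 (adjusted p = 0.0171), -0.38 for the complex I subunit Ndufa11 (adjusted p = 0.0417), -0.25 for Ndufs7, which holds the iron-sulphur cluster next to the quinone (adjusted p = 0.0468), and -0.26 for Atp5d, the delta subunit of ATP synthase (adjusted p = 0.0492). For all 6 genes the total RNA effect lay between -0.12 and -0.071 and the footprint effect between -0.15 and -0.033 in the authors' deposited table, so members with similar measured effects received buffering effects of both signs. The slopes worked back from the authors' deposited table were -8.45 for Atp5k, -4.33 for Ndufa11, -1.57 for Ndufs7 and -1.31 for Atp5d. They were 2.60 for Uqcr10 and 19.1 for Ndufa13. The 6 calls thus rest on slopes that differ widely in size and sign, and they are not read here as changes in measured RNA or footprints. At day 10 the authors' deposited table called Cox7c of complex IV alone, with 0.39 (adjusted p = 0.0119), or 1.05% of members beside 1.37% of all genes.

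The authors' own class column drew a different line from these calls. In the authors' deposited table of day 8, 3 members, Atp5d, Ndufs7 and Cox8c, were in the class buffering, which holds 125 genes or 0.825% of all, and the other 92 were in the class background. At day 10 all 95 members were in the class background of the authors' deposited table. There the class buffering holds 219 genes, or 1.48% of all, beside 204 genes called for buffering at 0.05. Among neighbouring genes, the authors' deposited tables called buffering for Uqcc2, an assembly factor of complex III (0.54, adjusted p = 0.00328), and for the coactivator Ppargc1a (-0.27, adjusted p = 0.0305) at day 8, and for the complex IV assembly factor Surf1 (0.48, adjusted p = 0.00541) at day 10. They called translation at day 10 for the assembly factor Uqcc3 (0.53, adjusted p = 0.0399) and the citric acid cycle enzyme gene Sucla2 (0.60, adjusted p = 0.0324) in the authors' deposited table.

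The testis isoforms of complex IV had lower juvenile effects than their counterparts in the authors' deposited tables, with the same sign in some comparisons and the opposite sign in others. Cox6b2 and Cox6b1 encode a subunit at the intermembrane face of complex IV, and Cox7b2 and Cox7b, like Cox8c and Cox8a, encode small membrane-spanning subunits. In total RNA at day 8 the authors' deposited table gave -0.10 for Cox6b2 and -0.024 for Cox6b1, -0.10 for Cox7b2 and 0.084 for Cox7b, and -0.090 for Cox8c and -0.038 for Cox8a. At day 10 it gave -0.049 and 0.012, -0.056 and 0.24, and -0.10 and 0.18 in the same order, again from the authors' deposited table. In footprints the pairs stood at -0.085 and -0.035, 0.035 and 0.14, and -0.17 and 0.0085 at day 8, and at -0.15 and -0.032, -0.057 and 0.20, and -0.13 and 0.21 at day 10, in the authors' deposited tables. The testis form was thus below its counterpart in each of the 3 pairs in these 4 comparisons, although no single effect passed the test and the difference within a pair could not be tested without values by animal. Total RNA and footprints of an age share their animals, so the 4 comparisons are not independent of each other.

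**Figure D4:**
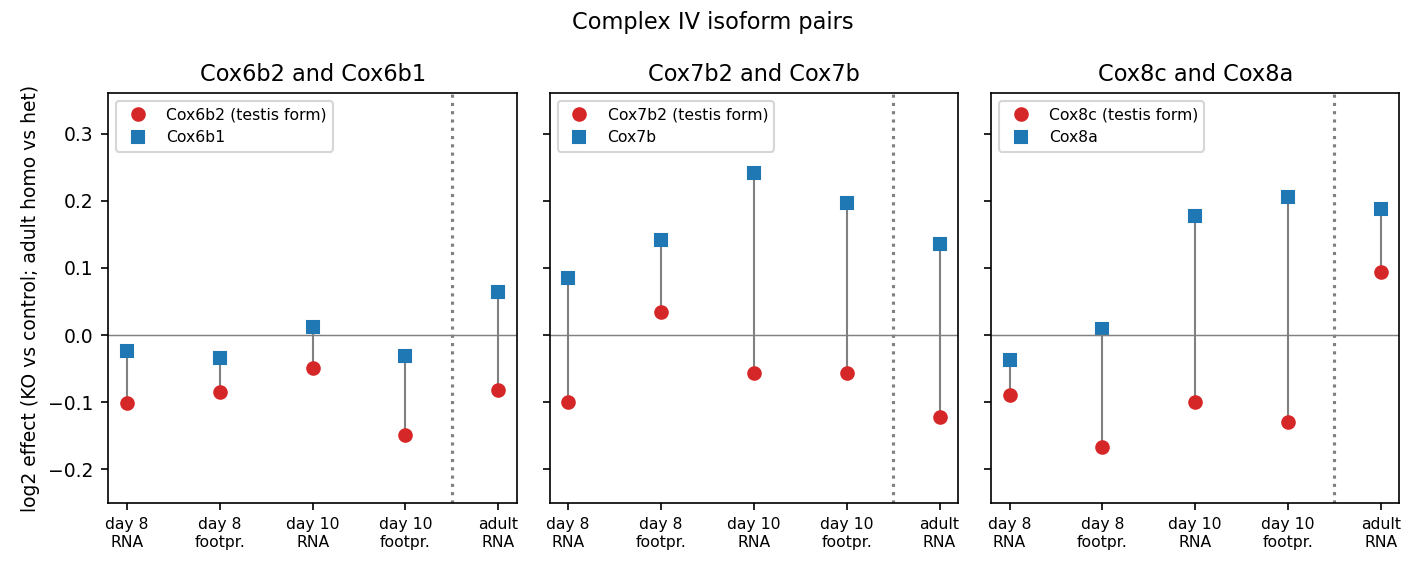
Effects (y axis, log2) of the testis isoform (red circles) and its counterpart (blue squares) in 3 complex IV pairs, for knockout against control in juvenile RNA and footprints and for homozygous against heterozygous WLA in adult RNA (x axis). The red circle lies below the blue square in every panel and comparison; the gap is widest for Cox8c and Cox8a in day 10 footprints, at -0.13 and 0.21.

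In adult WLA testis the same pairs were measured in single libraries. Cox6b2 stood at 184, 199 and 215 CPM in the heterozygous and 186, 191 and 188 CPM in the homozygous libraries, with a log2 fold change of -0.082 ± 0.056 (SE; edgeR adjusted p = 0.564). Cox6b1 had 18.9, 18.7 and 17.978 CPM against 18.045, 20.7 and 19.4 CPM, with 0.063 ± 0.072 (edgeR adjusted p = 0.742). Groups overlapped for both genes. Cox7b2 had 80.1, 93.7 and 86.8 CPM in heterozygous and 76.0, 78.0 and 85.5 CPM in homozygous libraries, a log2 fold change of -0.12 ± 0.065 (edgeR adjusted p = 0.450). Cox7b had 6.28, 5.43 and 5.30 CPM against 6.16, 6.30 and 6.21 CPM, with 0.14 ± 0.10 (edgeR adjusted p = 0.608). The 3 homozygous values of Cox7b lie close together and the first heterozygous library lies among them.

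Cox8c, the complex IV gene with the most reads, had 239, 211 and 223 CPM in heterozygous and 246, 233 and 238 CPM in homozygous libraries, a log2 fold change of 0.094 ± 0.051 (edgeR adjusted p = 0.463). Cox8a had 10.7, 9.23 and 8.61 CPM against 11.2, 10.6 and 10.7 CPM, with 0.19 ± 0.094 (edgeR adjusted p = 0.420). In this pair both members leaned the same way, with the testis form below its counterpart. The share of each pair's reads that came from the testis form ran from 90.2% to 92.3% for Cox6b2, from 92.5% to 94.5% for Cox7b2 and from 95.6% to 96.3% for Cox8c over the 6 adult libraries. Transcript lengths were not used here, so these shares describe reads and not molecules.

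No oxidative phosphorylation gene differed between homozygous and heterozygous WLA testis by the edgeR quasi-likelihood test. Of 93 members tested 0 had an adjusted p under 0.05, beside 0.236% of the 22446 features tested. DESeq2 called 1, Ndufa4l2, where it called 0.882% of all features. The median log2 fold change of the members was 0.016, beside 0.0055 for all features, and 69 of 93 lay within 0.1 of 0. The median standard error was 0.064. Not tested were Cox8b, with 0 or 1 read in each library, Cox6a2, with 2 to 8 reads, and the second identifier of Atp5o, with none.

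Summed over the 96 genes, CPM reached 5662 ± 164 (SD, n = 3) in heterozygous and 5688 ± 62.0 (SD, n = 3) in homozygous libraries. Complex I summed to 1683 ± 72.2 and 1709 ± 29.9 CPM, complex III to 644 ± 24.1 and 654 ± 8.09 CPM, and complex V to 1485 ± 31.2 and 1479 ± 7.07 CPM (SD, n = 3 each). Complex II summed to 316 CPM in both groups, with SDs of 3.82 and 2.07 CPM (n = 3). Complex IV summed to 1252 ± 26.8 and 1243 ± 24.8 CPM and the Ndufaf genes to 281 ± 15.5 and 287 ± 4.83 CPM (SD, n = 3 each). The groups overlapped in every one of these sums, and the heterozygous libraries varied more than the homozygous ones in each.

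None of the genes with the most reads in each complex was called, Cox8c of complex IV, given above, among them. Atp5b, the catalytic beta subunit of ATP synthase, had 530, 505 and 520 CPM in heterozygous and 531, 512 and 487 CPM in homozygous libraries (log2 fold change -0.024 ± 0.046, SE, edgeR adjusted p = 0.857). Uqcrc1, a core subunit of complex III, had 241, 216 and 236 CPM against 234, 234 and 234 CPM (0.018 ± 0.049, edgeR adjusted p = 0.908). The complex I core subunit Ndufv2 had 179, 180 and 197 CPM against 181, 188 and 192 CPM (0.016 ± 0.050, edgeR adjusted p = 0.923). All 3 genes overlap between genotypes. Sdha had 166, 166 and 161 CPM against 164, 161 and 164 CPM (-0.0094 ± 0.042, edgeR adjusted p = 0.946), and Ndufaf3, an assembly factor of complex I, 178, 146 and 171 CPM against 170, 170 and 173 CPM (0.050 ± 0.064, edgeR adjusted p = 0.776). For the rest of complex II the log2 fold changes were 0.035 for Sdhb, 0.0090 for Sdhc and -0.020 for Sdhd.

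The adult groups did not overlap for 6 of 93 members, or 6.45%, beside 19.3% of all features tested. The complex I accessory subunits Ndufc2 (0.28), Ndufb9 (0.18) and Ndufa6 (0.095) were higher in every homozygous library. Ndufa4l2 (-0.32), Atp5j2, subunit f of ATP synthase (-0.12), and Uqcrfs1, the Rieske iron-sulphur protein of complex III (-0.076), were lower. A share below that of all features is no result about these genes.

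Ndufa4l2 had the smallest adjusted p of the members. It encodes a relative of Ndufa4 that is induced by low oxygen in cultured cells. Its levels were 27.5, 24.4 and 25.4 CPM in heterozygous and 20.4, 20.9 and 20.6 CPM in homozygous libraries, so that all homozygous values lie below all heterozygous ones. The log2 fold change was -0.32 ± 0.066 (SE), with an edgeR adjusted p of 0.0833, and at a threshold of 0.1, which called 0.708% of all features, it was the 1 member called. The authors' deposited table gave it an adjusted p of 0.0194. Without a filter on low counts it was called too (edgeR adjusted p = 0.00592), where 1.49% of 39840 features were. Ndufa4 had 11.5, 11.3 and 11.3 CPM against 10.9, 11.2 and 11.7 CPM (-0.013 ± 0.076, edgeR adjusted p = 0.960), with groups that overlap.

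The other isoforms of single tissues were at low levels in adult testis. Cox4i2, the form of subunit 4 found in lung, had 15, 32 and 17 reads in heterozygous and 18, 13 and 17 reads in homozygous libraries (log2 fold change -0.32 ± 0.30, edgeR adjusted p = 0.676). The muscle form Cox7a1 had 30, 30 and 19 reads against 29, 21 and 24 reads (-0.0087 ± 0.23, edgeR adjusted p = 0.994). Neither differed beyond the spread between libraries. The summed level of 6 skeletal muscle genes was 1.99 to 2.58 CPM in heterozygous and 1.54 to 1.76 CPM in homozygous libraries, and that of 5 Leydig cell genes 260 to 412 CPM and 420 to 484 CPM, with no overlap between the groups in either list and opposite directions. Among the lists of genes that are not members, the groups did not overlap for 2 more: undifferentiated spermatogonia genes summed to 65.9 to 70.2 CPM in heterozygous and 71.6 to 73.7 CPM in homozygous libraries, and genes of the citric acid cycle and pyruvate dehydrogenase to 1870 to 1898 CPM and 1840 to 1866 CPM. Their part in the value of Ndufa4l2 was not tested.

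**Figure D5:**
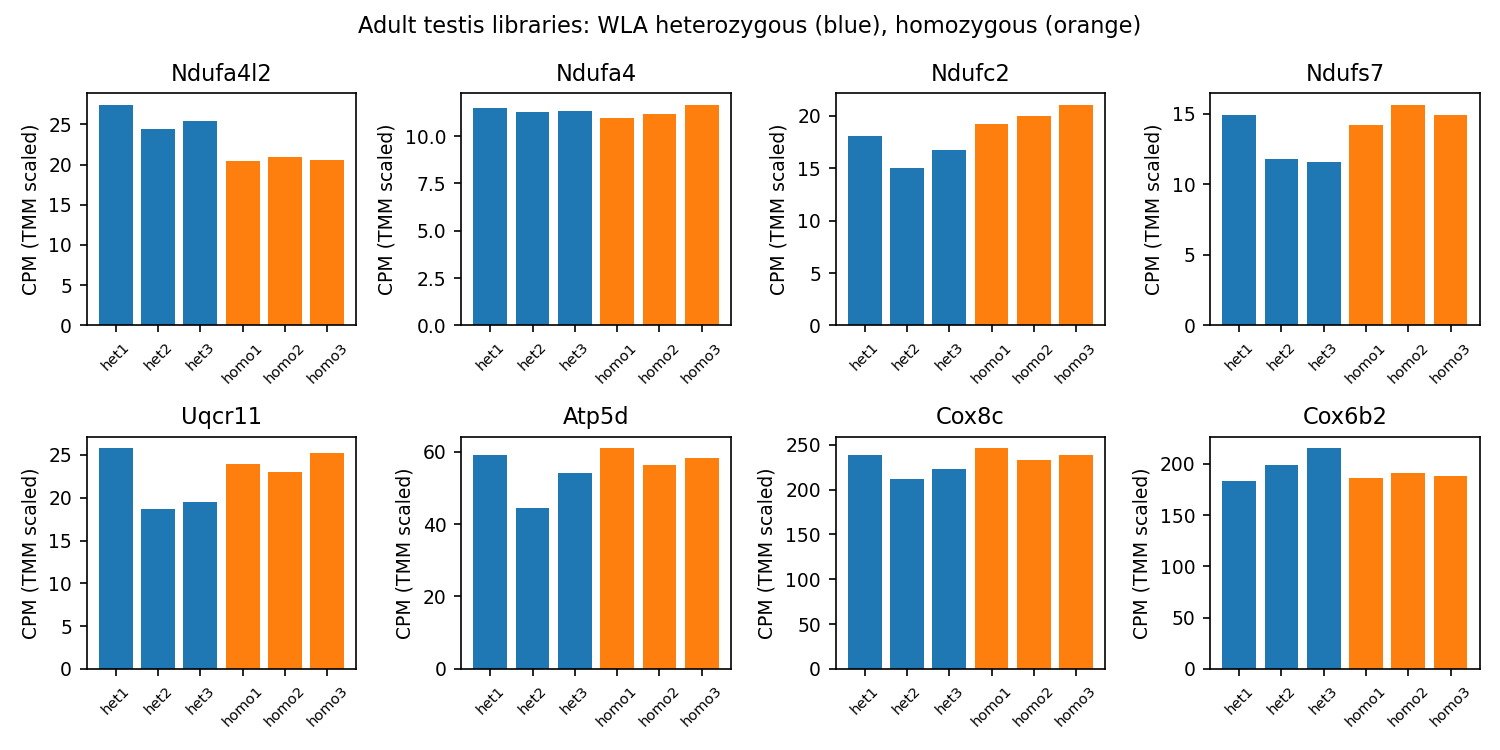
Level (y axis, TMM-scaled CPM from 0) of 8 genes in each adult library, WLA heterozygous in blue and homozygous in orange. Ndufa4l2 lies at 24.4 to 27.5 CPM in heterozygous and 20.4 to 20.9 CPM in homozygous libraries; for Uqcr11, Ndufs7 and Atp5d the first heterozygous library reaches the homozygous values.

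The number of adult calls changed with 1 library. Without the first heterozygous library, edgeR called 11 of 93 members, or 11.8%, beside 8.37% of the 22910 features then tested. Of these, 10 were higher in homozygous testis: Ndufa12, Ndufb6, Ndufb8, Ndufb11, Ndufc2 and Ndufs7 of complex I, the assembly factor Ndufaf8, Uqcr11 of complex III, and Atp5d and Atp5g2 of complex V, and Ndufa4l2 was lower. Uqcr11 had 25.8, 18.7 and 19.5 CPM in heterozygous and 23.9, 23.0 and 25.2 CPM in homozygous libraries, with a log2 fold change of 0.34 (edgeR adjusted p = 0.00750) without the first library and 0.18 (edgeR adjusted p = 0.510) with it. Ndufc2 had 18.1, 15.0 and 16.8 CPM against 19.3, 20.0 and 21.1 CPM, with 0.34 (edgeR adjusted p = 0.0117) and 0.28 (edgeR adjusted p = 0.192). For Uqcr11 the first heterozygous library was the highest of all 6, and for Ndufc2 the groups stayed apart with it. Leaving out any other library called 0 members, but those runs called only 0.0131% to 0.0655% of all features.

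Other members at the ends of the adult range were Ndufs7 (0.23 ± 0.10) and Ndufb6 (0.23 ± 0.12) above 0 and Ndufaf5 (-0.14 ± 0.10) below it, none of them called (log2 fold change ± SE; edgeR adjusted p = 0.359, 0.438 and 0.604). The 13 subunits encoded in mitochondrial DNA were all above 0, with a median log2 fold change of 0.10 and none called, and their summed level overlapped between groups, at 5634 to 6968 CPM in heterozygous and 5848 to 7209 CPM in homozygous libraries. The 3 members on the X chromosome, where genes are silenced in spermatocytes, were Cox7b (0.14), Ndufa1 (0.075) and Ndufb11 (0.18) in adults, while at day 10 the authors' deposited table gave total RNA effects of 0.24, -0.081 and -0.036 for them. Cox7b was the 1 of these 3 above 0 in juvenile total RNA.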

How the data were processed

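Members and gene lists were chosen with earlier results of these data known. Per the submitters' processing notes, STAR, DESeq2 and mm10 were used; the counting program was not given in the sources used here. Per the labels' protocols, RNA was extracted with Trizol and libraries used ribozero or poly(A) selection, without saying for which library. The adult table holds raw read counts deposited by the authors, with the authors' log2 fold changes and adjusted p-values. The juvenile tables hold effects and adjusted p-values from anota2seq 1.14.0, per the file headers and description. Knockout is named first there; the deposited effects were read as log2, and the authors' regression may have shrunk them.

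Adult counts were filtered with filterByExpr, scaled by TMM (also for CPM) and tested by edgeR 4.0.16 with its quasi-likelihood test in R 4.3.3, checked on simulated counts, with Benjamini-Hochberg adjustment over all 22446 features and a threshold of 0.05. Age was no covariate, since the columns name the genotype alone. Replicates count as separate animals because titles carry animal numbers. No pair of libraries agreed within sampling noise. Reads may be split with pseudogenes: 16 rows of other types match the symbol rule, 14 with a mean under 35 reads, Ndufa11b with 83.7 and Ndufa12-ps with 198. Tables were joined in Python 3.11.15 (pandas 2.3.3, numpy 2.4.6) and drawn with matplotlib 3.10.9. No new test was made on the juvenile tables.

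Genes named were every member past 0.05 in any comparison, the testis isoforms with their counterparts, isoforms of other tissues, the 3 highest and 3 lowest members per comparison, the member with most reads in each complex and the 4 Sdh genes. Others were chosen after their values were seen. Alternatives were other scalings, no filter, DESeq2 1.42.0, leaving out each library, other thresholds and reduced member lists. Positions and promoters come from RefSeq for GRCm38.p6, in which all 96 rows were found.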

Additional observations from a re-analysis of the deposited data

How the results depend on the processing

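The number of adult members called was 0 under TMM, RLE and unscaled library totals. It was 1 without the filter, with DESeq2 or at a threshold of 0.1, each time Ndufa4l2. Leaving out each library gave 0 to 11, with 11 only without the first heterozygous library. The runs that left out another library called only 0.0131% to 0.0655% of all features. Over left-out libraries the edgeR adjusted p of Ndufa4l2 ran from 0.0153 to 0.478 and its log2 fold change from -0.27 to -0.36. The median log2 fold change of the members ran from -0.0036 to 0.032 over left-out libraries. In the juvenile tables a threshold of 0.15 called 2 members for translation at day 8, 2 at day 10 and 1 for total RNA at day 10. For buffering it called 9 at day 8 and 2 at day 10, a comparison chosen after seeing the data. The share of all genes called for buffering at 0.15 was not counted. Without isoforms of single tissues the day 10 total RNA median was -0.000797. No paired analysis was possible because the juvenile tables hold no values by animal and the adult columns carry no animal number. With 3 libraries a group, a median standard error of 0.064 limits what the adult test can find. Juvenile depth is unknown.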
